A study of Homo sapiens with 6 samples.

Results

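The genes described here are ATF4, the transcription factor that drives the response of cells to amino acid shortage, and 9 genes known as its targets or as stress genes that respond with it: DDIT3, DDIT4, TRIB3, ASNS, CHAC1, GDF15, SESN2, PSAT1 and PHGDH. They were picked by symbol, and all 10 have a row among the 23615 rows of the deposited expression table. These genes and the gene lists used below were chosen with earlier results of these data known. Their counts beside those of all genes are therefore descriptive only. The cells were H1, an established line of human embryonic stem cells (hESCs), specified toward ectoderm for 10 days with 0.5 nM BMP-4 on the first 3 days and 10% fetal calf serum afterwards. Of 6 poly-A RNA libraries, 3 came from cells given DAPT at 5 μM, which blocks γ-secretase, the protease that cleaves Notch receptors and other membrane proteins, and 3 from cells given the ethanol vehicle alone. DAPT or ethanol was present throughout. No undifferentiated cells and no other γ-secretase inhibitor are part of these values, and all cells are of 1 line.

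The integrated stress response joins several kinds of stress to a shared output. Kinases that sense uncharged tRNA, misfolded protein in the endoplasmic reticulum (ER), double-stranded RNA or lack of heme phosphorylate the translation factor eIF2α. General translation then drops, while the ATF4 mRNA, whose upstream reading frames hold back its translation in unstressed cells, is translated more. ATF4 forms dimers with C/EBP and other basic leucine zipper proteins and activates genes of amino acid synthesis, amino acid uptake, tRNA charging, redox balance and cell death. An mRNA level of ATF4 is therefore not a measure of ATF4 protein, and the mRNAs of its targets are the usual readout.

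ATF4 dimers with C/EBP proteins bind composite elements with the core TGATGNAA, where N is any base. Windows from 1000 bases before to 1000 bases after the annotated transcript start were searched for this core on both strands of GRCh37, the build to which the reads were mapped. At least 1 match was present in 9 of the 10 genes, against 18.7% of 19807 protein-coding genes, and ATF4 itself had none. The narrower core TGATGCAA, a subset of the same matches, was present in 7 of the 10 genes and in 3.69% of the protein-coding genes. These matches describe letters in a window, and no binding was measured. They are shown because the genes were grouped for a shared regulator. In each 30-base run, written 5′ to 3′ on the strand that carries the core, capitals mark the core:
ASNS, upstream of the start, chr7:97501770-97501799, minus strand: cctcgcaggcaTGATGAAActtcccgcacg
CHAC1, upstream of the start, chr15:41245449-41245478, minus strand: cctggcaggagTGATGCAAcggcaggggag
DDIT3, upstream of the start, chr12:57914585-57914614, plus strand: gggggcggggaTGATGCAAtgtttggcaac
SESN2, upstream of the start, chr1:28585722-28585751, minus strand: ttagggttgcgTGATGAAAagggacttcac
TRIB3, in a 5′ UTR exon, chr20:361525-361554, minus strand: cccggtccgggTGATGCAAaccggagctaa
PSAT1, in an intron, chr9:80912297-80912326, minus strand: gctgtgcacgcTGATGCAAagcgcctaggg
PHGDH, in an intron, chr1:120255409-120255438, plus strand: cgcccctcgtcTGATGCAAgactgctccgt
GDF15, in an intron, chr19:18497685-18497714, plus strand: ggttctgaatcTGATGAAAtcgcttgtcaa
DDIT4, upstream of the start, chr10:74032725-74032754, plus strand: gtcctcggtccTGATGCAAccgtctggatc

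The cores of ASNS, CHAC1, SESN2 and DDIT3 lay close upstream, at positions -68, -209, -296 and -306 from the start. In TRIB3 the same 30 bases occurred 3 times, with cores 132, 165 and 198 bases after the start, all in the 5′ UTR exon. The core of DDIT4 was farther upstream, at position -942, and those of PSAT1, SESN2, GDF15 and PHGDH inside introns stood 267, 552, 728 and 863 bases after the start. Further matches were found in ASNS and PHGDH upstream and in the introns of DDIT3. Genes that were over 2-fold lower with DAPT carried TGATGNAA in 14.4% of 612 cases and genes over 2-fold higher in 18.9% of 540, against 16% of the 11560 expressed genes with an annotated start. For TGATGCAA the shares were 4.9%, 3.7% and 3.04%.

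**Figure D1:**
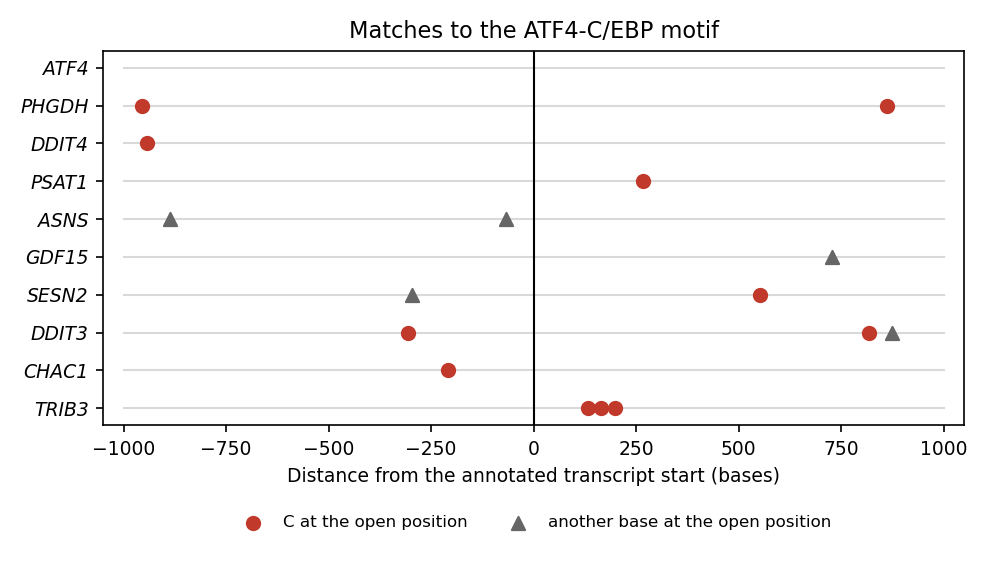
Matches to the core TGATGNAA within 1000 bases of the annotated transcript start (x axis, bases) for each of the 10 genes, on either strand. Circles are matches with C at the open position and triangles are matches with another base, and 9 of the 10 genes have at least 1.

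The table gave 1 FPKM value (a fragment count divided by transcript length and by the number of mapped fragments) per treatment, computed by the authors over the 3 libraries, and no value per library. The spread between libraries and the depth are therefore unknown, no test could be made here, and a fold change below has no replicate check. The log2 fold change is that of DAPT over ethanol, and a gene is called over 2-fold lower or higher only in this descriptive sense. The treatment names are contradictory in the deposited workbook, where 1 sheet labels as DAPT the very values that the other labels as ethanol. The names of the sheet of changed genes, which the study follows, were used, and with the other names every direction given here would turn around. Under the names used, POU5F1 was at 240 FPKM with ethanol and 47.3 FPKM with DAPT. TFAP2A was at 7.10 FPKM with ethanol and 21.8 FPKM with DAPT. These are the directions that the study reported for both mRNAs by quantitative PCR. In bulk RNA, fewer cells of a type and less RNA per cell cannot be told apart.

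Of the 10 stress genes, 3 were over 2-fold lower with DAPT, namely GDF15, CHAC1 and PHGDH, and none was over 2-fold higher. Among the 13480 genes with at least 1 FPKM in 1 or both treatments, which include all 10, 5.81% were over 2-fold lower and 5.15% over 2-fold higher. ASNS, SESN2, PSAT1, DDIT3 and ATF4 were lower by less than 2-fold, and TRIB3 and DDIT4 were slightly higher. Thus 8 of the 10 were lower by any amount, as were 49.9% of all expressed genes and 11 of 14 housekeeping genes. The median log2 fold change of the 10 was -0.51, and that of all expressed genes was 0.00065 with quartiles of -0.29 and 0.27.

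**Figure D2:**
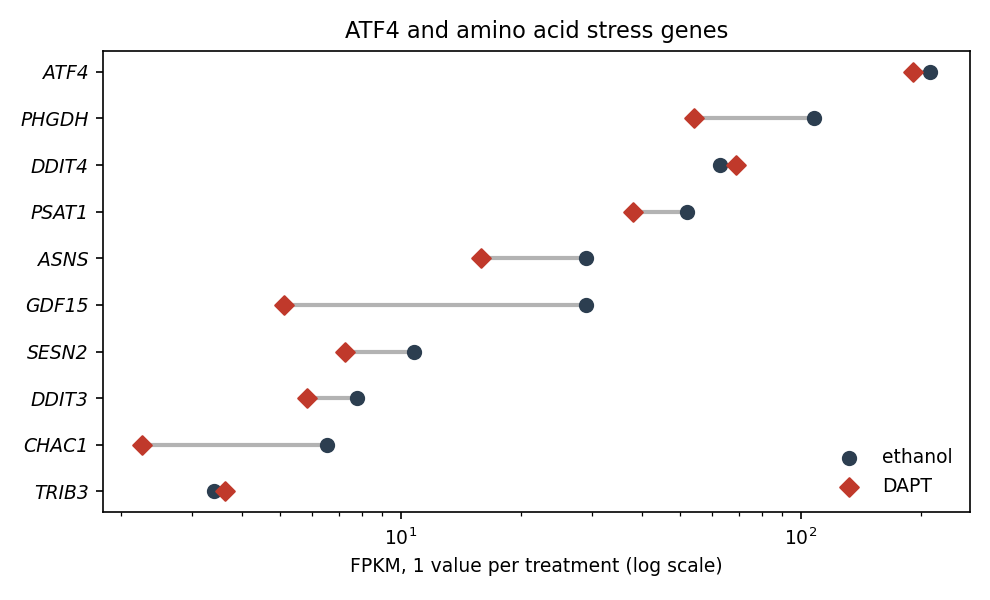
FPKM (x axis, log scale) of the 10 genes with DAPT (red diamonds) and ethanol (dark circles), 1 authors' value per treatment and no error. The gap is widest for GDF15, from 29.0 to 5.11 FPKM, and ATF4, DDIT4 and TRIB3 have nearly the same level in both.

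GDF15 and CHAC1 had the largest fold changes of the 10 genes. In FPKM the difference was largest for PHGDH (-54.5, DAPT minus ethanol), followed by GDF15 (-23.9), and that of CHAC1 was -4.29. GDF15 (chromosome 19, 18496968 to 18499986 of hg19) encodes a secreted stress cytokine of the TGF-β superfamily, and stood at 29.0 FPKM with ethanol and 5.11 FPKM with DAPT. That is a 5.67-fold lower level with DAPT (log2 fold change -2.50), and only 1.15% of the expressed genes had a lower log2 fold change. Its row shares a locus with that of the microRNA gene MIR3189, which was listed at 0 in both treatments. CHAC1 (chromosome 15, 41245636 to 41248717) encodes an enzyme that breaks down glutathione in stressed cells. It was at 6.55 FPKM with ethanol and 2.26 FPKM with DAPT, 2.90-fold lower (log2 fold change -1.53), with 2.95% of the expressed genes below it. At such low levels differences of this size were more frequent, since 10.3% of genes with a mean under 5 FPKM were over 2-fold lower, against 3.49% of those from 5 to 20 FPKM, where GDF15 lay.

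The enzymes of serine and asparagine synthesis were abundant and lower with DAPT. PHGDH (chromosome 1, 120254419 to 120286849), which diverts 3-phosphoglycerate from glycolysis into serine, was at 108 FPKM with ethanol and 54.0 FPKM with DAPT. Its log2 fold change of -1.01 lay at the 2-fold limit and passed it in some settings only, with -0.94 after rescaling each treatment to the same total and -0.99 with 1 FPKM added to both values. Genes at this level differed less, and 2.98% of those with a mean from 20 to 100 FPKM were over 2-fold lower. ASNS (chromosome 7, 97481429 to 97501854), the asparagine synthetase, was at 29.0 FPKM with ethanol and 15.9 FPKM with DAPT, a log2 fold change of -0.87 that did not reach 2-fold. PSAT1 (chromosome 9, 80912059 to 80945009), the aminotransferase that follows PHGDH in the serine pathway, was at 52.0 and 38.0 FPKM (log2 fold change -0.45). PSPH, the phosphatase of the last step, was at 13.3 FPKM with ethanol and 9.42 FPKM with DAPT (log2 fold change -0.50). All steps of serine synthesis thus had a lower value with DAPT, of which 1 was past 2-fold. The annotation also holds pseudogenes of ASNS, PSAT1 and ATF4, and the sources used here do not state how reads matching several copies were divided.

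The level of ATF4 mRNA was nearly the same in both treatments. ATF4 (chromosome 22, 39916569 to 39918691) was the most abundant of the 10 genes, at 211 FPKM with ethanol and 191 FPKM with DAPT, a log2 fold change of -0.14 that 36.1% of the expressed genes were below. DDIT3 (chromosome 12, 57881736 to 57914300), the gene of the pro-apoptotic factor CHOP, was at 7.76 FPKM with ethanol and 5.83 FPKM with DAPT (log2 fold change -0.41). Its row has the same locus as that of MARS, the methionyl-tRNA synthetase (74.1 and 56.0 FPKM), so reads from the overlap of these genes may be divided between these rows, and how this was done is unknown. TRIB3 (chromosome 20, 361308 to 378203), a pseudokinase that binds ATF4 and dampens its activity, was the least abundant with ethanol, at 3.41 FPKM against 3.64 FPKM with DAPT (log2 fold change 0.09). CHOP and TRIB3 belong to the late, death-prone arm of the response, and neither differed by as much as CHAC1 of the same arm.

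Of the 2 inhibitors of the growth kinase mTORC1 among the genes, 1 was nearly level and 1 was lower by less than 2-fold. DDIT4 (chromosome 10, 74033677 to 74035797), also known as REDD1, acts through the TSC complex and was at 63.0 FPKM with ethanol and 69.0 FPKM with DAPT (log2 fold change 0.13). SESN2 (chromosome 1, 28585963 to 28609002), a leucine sensor that acts on the GATOR complexes, was at 10.8 FPKM with ethanol and 7.26 FPKM with DAPT (log2 fold change -0.58, with 12% of the expressed genes below it). In the order of levels, PHGDH was the second of the 10 with ethanol and the third with DAPT, where DDIT4 stood above it, and GDF15 moved from place 6 to place 8. CHAC1 took the last place with DAPT, which TRIB3 held with ethanol. Without the spread between libraries, neighbours in this order such as ASNS and GDF15 with ethanol (29.03 and 28.99 FPKM) cannot be separated.

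**Figure D3:**
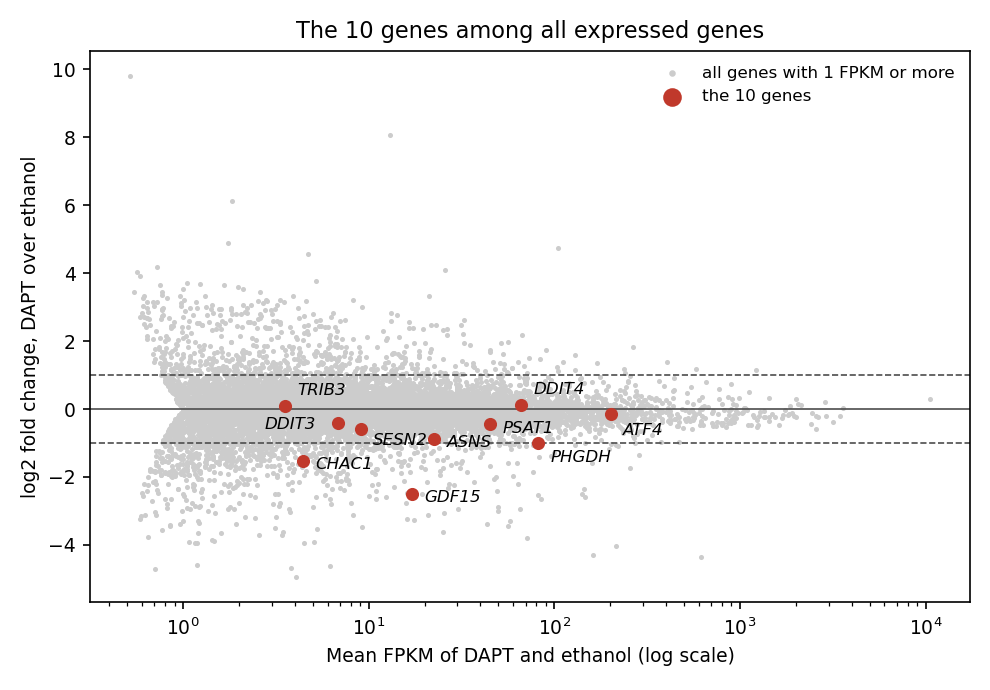
Log2 fold change of DAPT over ethanol (y axis) against the mean FPKM of both treatments (x axis, log scale) for genes with at least 1 FPKM in 1 or both, without the 110 listed at 0 in 1 of them. Red points are the 10 genes, dashed lines mark 2-fold, and GDF15, CHAC1 and PHGDH lie on or below the lower line while the other 7 lie between the lines.

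Other enzymes of amino acid and one-carbon metabolism were also more often lower than higher. Of 30 expressed enzymes besides ASNS, PSAT1 and PHGDH, 5 (16.7%) were over 2-fold lower and none was over 2-fold higher, beside 5.81% and 5.15% of all expressed genes. By any amount 24 (80%) were lower, beside 49.9%, and their median log2 fold change was -0.36. A lean to lower values was not particular to these enzymes. Of 14 housekeeping genes 11 were lower by any amount, with a median of -0.20, though none was past 2-fold. GLDC, which cleaves glycine in mitochondria, had the lowest value, with 15.3 FPKM in ethanol and 4.98 FPKM in DAPT (log2 fold change -1.61). CBS and CTH, which turn homocysteine into cysteine, were at 79.2 and 39.5 FPKM and at 7.93 and 3.78 FPKM in ethanol and DAPT (log2 fold changes -1.01 and -1.07). PCK2, the mitochondrial PEP carboxykinase, was at 18.8 and 8.65 FPKM (-1.12), and ASS1, which makes argininosuccinate from citrulline and has many pseudogenes, at 22.8 and 11.1 FPKM (-1.05). Like PHGDH, most of these lay close to the limit, and after rescaling, or with 1 FPKM added, 1 rather than 4 of the 18 expressed enzymes outside the serine and one-carbon list was over 2-fold lower. The mitochondrial folate enzymes SHMT2 (73.8 FPKM with ethanol, 47.8 FPKM with DAPT) and MTHFD2 (77.1 and 52.5 FPKM) were lower by less than 2-fold, and TYMS, the thymidylate synthase, was at 73.9 and 84.0 FPKM. The abundant enzymes GLUL (66.0 and 66.3 FPKM) and OAT (64.2 and 63.0 FPKM) were level.

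Amino acid transporters went both ways. Of 23 expressed, 3 were over 2-fold lower, 2 were over 2-fold higher and the median was -0.12. The shares over all expressed genes were 5.81% lower and 5.15% higher. SLC7A3, a carrier of cationic amino acids, was at 29.2 FPKM with ethanol and 8.90 FPKM with DAPT (log2 fold change -1.71), while SLC7A1, another carrier of the same substrates, was at 11.6 and 24.5 FPKM (1.08). SLC7A8 (29.3 and 10.1 FPKM, -1.54) and SLC43A1 (3.11 and 1.05 FPKM, -1.57), carriers of neutral amino acids, were the other lower genes, and SLC1A3, a glutamate carrier, was the other higher gene (10.2 and 21.5 FPKM, 1.07). The chains of the leucine exchanger, SLC7A5 (84.2 and 89.5 FPKM) and SLC3A2 (109 and 87.4 FPKM), both ATF4 targets, were within 2-fold. So was SLC7A11, the cystine carrier and a sensitive ATF4 target, at 0.897 FPKM with ethanol and 1.23 FPKM with DAPT.

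Genes that charge tRNA varied little. None of 21 cytosolic aminoacyl-tRNA synthetases was past 2-fold, and their median was -0.14. Few of all expressed genes were past it either, 5.81% lower and 5.15% higher. A lower value with DAPT was found for 15 of them, for 49.9% of all expressed genes and for 11 of 14 housekeeping genes. WARS (55.8 FPKM with ethanol, 35.3 FPKM with DAPT, log2 fold change -0.66) and AARS (58.9 and 38.1 FPKM, -0.63) had the lowest values. The most abundant, SARS (105 and 95.0 FPKM) and QARS (99.6 and 98.5 FPKM), were close to level. None of the 17 mitochondrial synthetases was past 2-fold either, and their median was -0.06.

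Of 29 further expressed ATF4 targets, 6 were over 2-fold lower and 2 over 2-fold higher, with a median of -0.09, beside 5.81% and 5.15% of all expressed genes. With 1 FPKM added to both values 1 gene, PCK2, was over 2-fold lower and the 2 higher genes were unaffected, and after rescaling 4 were lower. The lower genes included CBS, CTH and PCK2, which were already counted among the lower enzymes above. The other lower genes were INHBE, a stress-induced activin subunit (1.40 FPKM with ethanol, 0.352 FPKM with DAPT, log2 fold change -1.99), ADM2, a peptide hormone (3.66 and 1.44 FPKM, -1.35), and UNC5B, a netrin receptor whose row overlaps that of its antisense gene (10.5 and 4.82 FPKM, -1.12). The translation repressor EIF4EBP1 was just inside 2-fold, at 71.3 and 36.0 FPKM (-0.99). The higher genes were SNAI2, a repressor of epithelial adhesion genes (2.04 and 16.4 FPKM, 3.01), and ERO1L, the oxidase that drives disulfide formation in the ER (1.57 and 7.42 FPKM, 2.24). The partners of ATF4 in dimers, 13 basic leucine zipper genes, were all within 2-fold, with ATF3 at 27.6 FPKM with ethanol and 37.4 FPKM with DAPT and CEBPG at 11.0 and 10.8 FPKM.

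Upstream of ATF4, none of 11 genes of eIF2α regulation was past 2-fold. Of all expressed genes 5.81% were over 2-fold lower and 5.15% higher, so none among 11 is little different from that. The list held the kinases, phosphatase subunits and cofactors, eIF2α itself (EIF2S1) and the exchange factor subunit EIF2B5, and their log2 fold changes ran from -0.24 to 0.23. EIF2AK4, the kinase that senses uncharged tRNA, was at 30.9 FPKM with ethanol and 26.5 FPKM with DAPT, and EIF2AK3, the kinase of ER stress, at 7.54 and 7.90 FPKM. PPP1R15A, the stress-induced phosphatase subunit that ends the response, was at 21.6 and 19.7 FPKM. These are mRNA levels, and kinase activity was not measured.

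**Figure D4:**
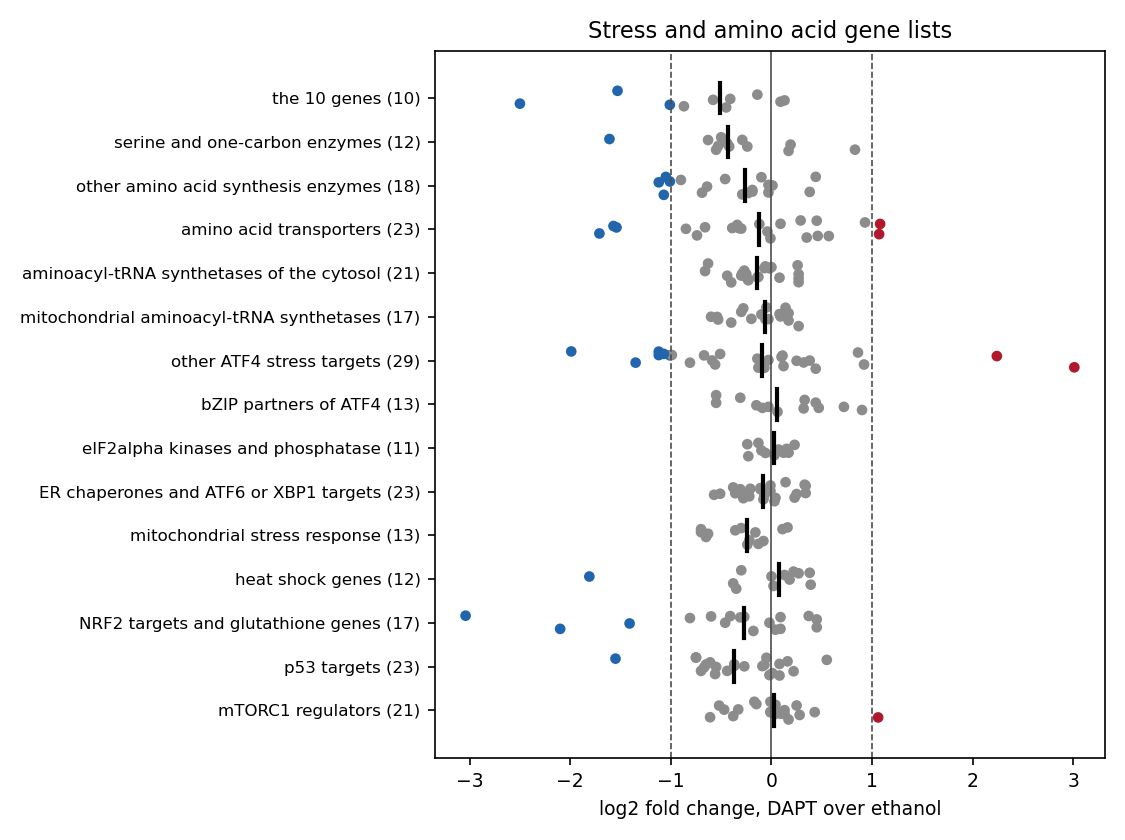
Log2 fold change of DAPT over ethanol (x axis) for each expressed gene of 15 lists, with the number of genes in parentheses and the list's median as a black bar. Blue and red points are over 2-fold lower and higher, dashed lines mark 2-fold, and the medians run from -0.51 for the 10 genes to 0.07 for heat shock genes.

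Stress genes of other pathways mostly stayed within 2-fold, as did most expressed genes. Of all expressed genes 5.81% were over 2-fold lower and 5.15% higher, and these shares stand beside each count in this paragraph. None of 23 ER chaperones and targets of ATF6 or XBP1 was past it (median -0.08), with the chaperone gene HSPA5 at 135 FPKM with ethanol and 140 FPKM with DAPT and CALR at 610 and 606 FPKM. None of 13 mitochondrial stress genes was past it (median -0.24), HSPD1 being at 187 and 119 FPKM. Of 12 heat shock genes 1 was lower, CRYAB (37.4 and 10.7 FPKM), a small heat shock protein that is also a muscle and lens protein. Among 17 genes of the NRF2 response and glutathione, 3 were over 2-fold lower and none higher, beside 5.81% and 5.15% of all expressed genes. The 3 were GPX2 (6.72 and 0.816 FPKM, at a locus shared with several rows), HMOX1, the heme oxygenase (12.3 and 2.86 FPKM), and GGT1 (2.91 and 1.09 FPKM). GDF15 and SESN2 are p53 targets as well. Of 23 other p53 targets, FDXR alone was over 2-fold lower (22.4 and 7.66 FPKM) and none was higher, with a median of -0.37 and 17 genes lower by any amount, among them CDKN1A (178 and 122 FPKM) and BAX (173 and 103 FPKM). Lower by any amount were also 49.9% of all expressed genes and 11 of 14 housekeeping genes. Of 21 mTORC1 regulators, RRAGB was over 2-fold higher (3.11 and 6.50 FPKM) and none was lower, and of 13 hypoxia and glucocorticoid genes related to DDIT4, EPAS1 was higher (15.0 and 55.5 FPKM) and ADM lower (46.9 and 15.5 FPKM).

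Of 7 close relatives of the 10 genes, 1 was over 2-fold higher and none lower (median -0.25), beside 5.15% and 5.81% of expressed genes. The higher relative was SESN3 (10.8 FPKM with ethanol, 24.6 FPKM with DAPT, log2 fold change 1.19), whereas SESN1 was at 20.4 and 13.0 FPKM (-0.65), near SESN2. CHAC2, which differs from CHAC1 in being expressed without stress, was at 2.44 and 2.04 FPKM (-0.26). TRIB1 (12.5 and 10.5 FPKM), TRIB2 (14.3 and 16.0 FPKM), ATF5 (5.36 and 6.68 FPKM) and DDIT4L (1.69 and 1.07 FPKM) were within 2-fold. Of 7 expressed genes of the TGF-β superfamily around GDF15, 3 were over 2-fold lower and 2 higher, beside the same shares. The lower ones were GDF3 (14.0 and 2.05 FPKM), LEFTY1 and INHBE, the last already counted among the ATF4 targets. GDF6 and INHBA (3.25 and 23.1 FPKM) were higher, and GDF11 and LEFTY2 were within 2-fold. GFRAL, the GDF15 receptor, was listed at 0 in both treatments.

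Over all pathway lists, 262 expressed genes besides the 10 had 19 over 2-fold lower (7.25%) and 9 over 2-fold higher (3.44%), beside 5.81% and 5.15% of all expressed genes. Their median was -0.13.

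Markers of some cell types also differed between the treatments, and fold changes over all expressed genes varied with the GC content and length of the transcripts. All 6 endoderm markers were over 2-fold lower with DAPT, with a summed level of 490 FPKM with ethanol and 34.8 FPKM with DAPT, as were 4 of 6 pluripotency markers (621 and 231 FPKM summed). Of 6 surface ectoderm markers, 3 were over 2-fold higher and none lower (1580 and 1860 FPKM summed). Most of this sum came from KRT8 (876 and 961 FPKM) and KRT18 (687 and 846 FPKM), both within 2-fold. Most of the endoderm sum came from APOA1 (403 and 24.7 FPKM). Of 6 trophoblast markers only HSD3B1 reached 1 FPKM. By their medians, the transcripts of the 10 genes were GC-rich and short. The median GC content was 58.1% against 48.5% of the expressed genes with annotation, and the median length 1807 against 3348 bases. ASNS (42.7%) and PSAT1 (42.5%) were below that GC median, and SESN2 (3462 bases) was above that length. In the quartile of expressed genes with the highest GC content, which held 6 of the 10, the median log2 fold change was -0.21 and 8.51% were over 2-fold lower. In the quartile with the lowest GC content, which held none of them, these values were 0.13 and 2.47%. The shortest quartile, which also held 6, had a median of -0.18 and 8.16% over 2-fold lower. The median of 14 housekeeping genes was -0.20. The part of cell types, GC content and length in the values of the 10 genes was not tested.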

How the data were processed

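RNA of 3 DAPT and 3 ethanol libraries was sequenced with a stranded poly-A kit. Mapping to hg19 was done by the authors with TopHat2 (version 2.0.6), and the FPKM values that they deposited were computed with Cufflinks, 1 per gene and treatment. How libraries were scaled, which annotation served and whether counting used strand is not given in the sources used here. Columns of fold changes, test statistics, p-values and q-values in the deposited workbook hold the authors' own comparison and were not used. All 1417 rows of the sheet of changed genes held the same FPKM values as the sheet of all genes, within a relative difference of 1e-06. The log2 fold change was computed from FPKM values as deposited, over genes with at least 1 FPKM in 1 or both treatments. No test was possible with 1 value per treatment. The 10 genes and the 22 lists were chosen with earlier results of these data known. Named were the 10 genes, their paralogs, list genes past 2-fold and up to 4 others per list with the highest mean FPKM, while PSPH, SLC7A11, WARS, AARS, CEBPG, EIF2AK3, EIF2B5, PPP1R15A, HSPA5, GFRAL and MARS were named after their values were seen or for their role. Locus starts in the table count from 0 and are printed counting from 1. Transcript starts, length and GC content came from GENCODE and the GRCh37 genome, matched by symbol for 85.8% of expressed genes. Of the symbols, 28 had been turned into dates. Calling and motif search were tested on simulated data. Python 3.11.15, pandas 2.3.3 and matplotlib 3.10.9 were used.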

Additional observations from a re-analysis of the deposited data

How the results depend on the processing

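No alternative could turn the direction of the 10 genes, so its being kept is no check. Adding the same amount to both values, a filter or another limit cannot reverse a ratio. Centring moved log2 fold changes by 0.00065 and rescaling to a common total by 0.07, less than the 0.09 of TRIB3, the smallest of the 10. The log2 fold change lay between -2.50 and -2.30 for GDF15, -1.53 and -1.21 for CHAC1 and -1.01 and -0.94 for PHGDH. PHGDH was no longer past 2-fold with 1 FPKM added or after rescaling. TRIB3 ran from 0.07 to 0.16 and DDIT4 from 0.13 to 0.20. With a 1.5-fold limit ASNS also counted as lower. Without rows that share a symbol or locus, GDF15 and DDIT3 were left out, 2 genes were over 2-fold lower, and the median of the relatives of GDF15 turned from 0.22 to -1.99. Counts over all genes, 783 lower and 694 higher, became 421 and 423 with 1 FPKM added, 2510 and 1993 without a filter, 356 and 356 with a filter at 5 FPKM and 1582 and 1458 with a 1.5-fold limit. The counts over the pathway lists, 19 lower and 9 higher, became 12 lower with 1 FPKM added and 49 and 16 with a 1.5-fold limit. With 1 FPKM added, 1 of the 2 higher transporters and RRAGB were no longer past 2-fold. Without rows sharing a symbol or locus, 1 NRF2 or glutathione gene was lower and 1 surface ectoderm marker higher, and with a filter at 5 FPKM 3 endoderm markers were lower. All 10 genes have the status OK, so using only such rows, an alternative chosen after seeing the data, could not change their calls. No paired analysis was possible because the table holds 1 value per treatment, and for the same reason no replicate could be left out. The depth is unknown, so the error of low values such as those of TRIB3 and CHAC1 cannot be given.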
